A study of Mus musculus with 18 samples.

Results

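Broad domains of histone H3 acetylated at lysine 27 (H3K27ac) were examined in mouse cerebral cortex. The H3K27ac peaks of 3 animals were merged wherever they overlapped by at least 1 bp on chromosomes 1 to 19, which gave 83349 merged regions. The broad domains are the 1453 merged regions of 5000 bp or more that held a peak of every animal, 1.74% of all merged regions. They were compared with the 34767 narrower regions of under 5000 bp that also held a peak of every animal. The broad domains thus made up 4.01% of the 36220 regions shared by all animals.

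The tissue was frozen cortex from adult C57BL/6J females of 14 weeks, all wild type, with no treatment or altered allele in any of them. The 3 animals are numbered 5, 7 and 9. Chromatin immunoprecipitation with sequencing (ChIP-seq) was done in each with 5 antibodies, against H3K27ac, histone H3 with 1 methyl group on lysine 4 (H3K4me1), RNA polymerase II phosphorylated on serine 5 (PolII_S5P), MBD3 and TDG. Cortex is a mixture of cell types, so a site used by fewer cells and a weaker signal per cell cannot be told apart.

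H3K27ac is deposited by the acetyltransferases p300 and CBP at active promoters and enhancers, and long stretches of it are known from clustered enhancers and from strongly transcribed genes that mark a cell's identity. H3K4me1 is placed by MLL3 and MLL4 and is typical of enhancers, while serine 5 phosphorylation marks polymerase in early transcription near start sites. MBD3 is a subunit of NuRD, a complex that slides nucleosomes and removes acetyl groups from histones, and TDG excises thymine from mismatches and oxidised methylcytosine from DNA. The title of the series concerns TDG and MBD3/NuRD at active promoters, and the comparisons here ask how these proteins are distributed on the widest acetylated stretches.

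Most broad domains were only somewhat wider than 5 kb. Their median width was 6444 bp (quartiles 5570 and 8255 bp), against 1370 bp for the narrower regions. A width of 5 to 7.5 kb was found for 978 domains (67.3%), 279 measured 7.5 to 10 kb and 196 measured 10 kb or more. Only 12 domains reached 20 kb, and the widest spanned 36280 bp. Together the domains covered 10.9 Mb, which was 16.3% of the width of all shared regions. All 1453 regions that reached 5000 bp had peaks in every animal, so the demand for all animals removed none. Widths chose the domains and are therefore a description, with no test.

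**Figure D1:**
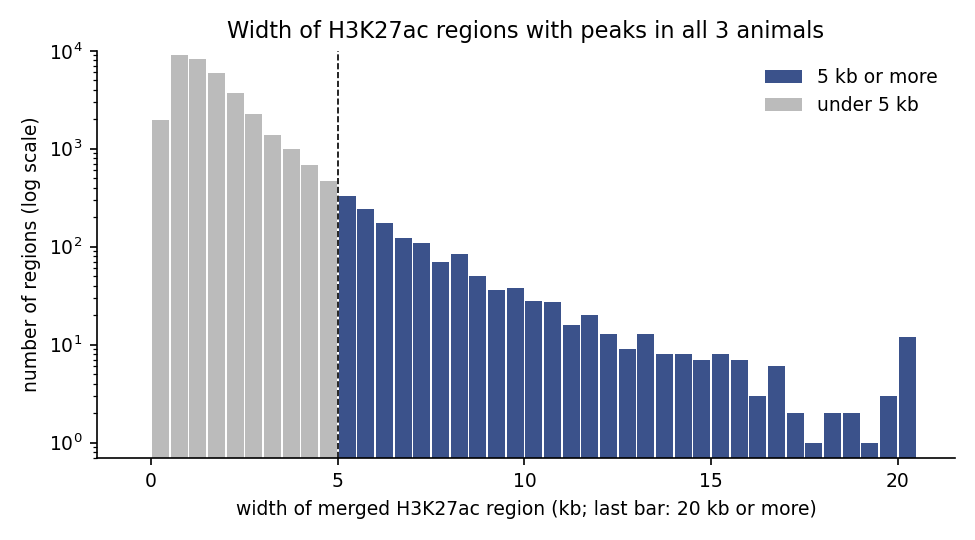
Number of H3K27ac regions with peaks in all 3 animals (y axis, log scale) by width of the merged region in kb (x axis, bars of 0.5 kb, the last bar holding all regions of 20 kb or more). The counts decline across the dashed line at 5 kb without a gap, from grey bars for narrower regions to blue bars for the 1453 broad domains.

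The histogram of widths shows no separate class of broad regions, and the domains form the tail of one distribution. The regions beside the limit differed by a base or so. Just inside lay chr18:7001697-7006696 and chr19:45002590-45007589 with 5000 bp each, and chr7:63202698-63207698 with 5001 bp. Just outside lay chr11:101880280-101885278 with 4999 bp, and chr15:98865561-98870558 and chr2:33432920-33437917 with 4998 bp each. Of these 6 regions, all had MBD3 peaks in all 3 animals, as did 90.3% of all domains and 48.4% of narrower regions. H3K4me1 was found in every animal in 1 of the 3 inside and in 2 of the 3 outside. Its shares were 47.7% of all domains and 15.8% of narrower regions. With 3 regions on either side, these counts cannot show a difference across the limit.

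A domain was not always a single peak in an animal. A single H3K27ac peak of 5000 bp or more lay on 890 of the 1453 domains in animal 5, on 845 in animal 7 and on 474 in animal 9. Animal 9 thus broke the domains into more and shorter peaks: the median peak on a domain was 3874 bp wide in animal 5, 3506.5 bp in animal 7 and 1705 bp in animal 9. In 366 domains every animal had such a peak, and in 296 (20.4%) none had, so that the width came from merging across animals. The longest stretch acetylated in all animals had a median of 3488 bp and reached 5000 bp in 343 domains (23.6%). Acetylated peaks covered a median of 94.2% of a domain's width in animal 5, 93.5% in animal 7 and 82.6% in animal 9.

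The domains also carried strong H3K27ac peaks. The fold enrichment, which is the authors' value for a peak over its local background, had a median of 7.31 in animal 5, 7.46 in animal 7 and 6.23 in animal 9 for the strongest peak of a domain. For narrower regions these medians were 4.44, 4.56 and 4.09. The domains held 4.48 ± 1.33% of the H3K27ac peaks (SD, n = 3) but 15.2 ± 1.35% of the bases under them. These values come from the libraries that defined the domains and are likewise a description.

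Broad domains lay on all 19 autosomes and often close to each other. Chromosome 2 held the most, 145, followed by chromosome 11 with 119 and chromosome 9 with 114, and chromosome 19 held the fewest, 37. As a share of the shared H3K27ac regions on a chromosome, they ranged from 2.81% on chromosome 17 to 5.54% on chromosome 15, with 5.47% on chromosome 18. The median gap from a domain to the nearest other domain was 36.0 kb, against 433 kb from a narrower region to its nearest domain. Another domain lay within 10 kb of 31.7% of the domains and within 100 kb of 63.5%. For narrower regions, a domain lay within 10 kb of 7.82% and within 100 kb of 27.1%. Domains within 10 kb of each other could be a single stretch with short breaks, so these distances depend on how peaks were called and merged.

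Runs of domains with gaps of up to 10 kb numbered 191 and held 461 domains. Of these runs, 11 had 4 domains or more. The longest by number had 6 domains within 73.9 kb of chromosome 2, from 165657754 to 165731609. Runs of 5 domains lay at chr6:86003077-86082371, chr14:64397759-64465961, chr8:94605780-94661006 and chr12:100165251-100211808. All positions are on the mouse build mm39, counted from 1, and genes at them were not analysed here.

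MBD3 was found on nearly every broad domain. A peak lay on 96.8% of domains in animal 5, 97.0% in animal 7 and 91.2% in animal 9, against 64.6%, 68.0% and 52.3% of narrower regions. The lowest value for domains was above the highest for narrower regions. The mean was 94.999 ± 3.30% against 61.6 ± 8.27%, a difference of 33.4 ± 5.06 percentage points (SD, n = 3). A two-sided exact permutation test of 3 values against 3 gave p = 0.1, the smallest this design allows, and an adjusted p of 0.4 (Benjamini-Hochberg over the 12 tests of domains against narrower regions). No test of this kind can therefore reach 0.05 here. MBD3 was present in all 3 animals on 1312 domains (90.3%), where 50.1% of all shared regions had it in all 3.

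The high share went along with width, and the density of MBD3 was not higher on the domains. MBD3 peaks covered 28.3% of the domains' bases in animal 5, 28.9% in animal 7 and 16.4% in animal 9, and 32.2%, 33.4% and 18.4% of the bases of narrower regions. Coverage was lower on domains in each animal, by a mean of 3.48 ± 1.30 points (24.5 ± 7.08% against 28.0 ± 8.35%). The exact permutation test, which leaves out the pairing by animal, gave p = 0.5, adjusted 0.84. Paired by animal, an exact sign-flip test gave p = 0.25, the smallest that 3 animals allow, adjusted 0.3. Against merged regions found in any number of animals, the difference was 1.60 points in the other direction. It was -2.07 points without animal 7, -0.378 points for domains with a common stretch of 5000 bp and -7.23 points with peaks merged within 500 bp. There were 0.330 ± 0.0474 MBD3 peaks per kb on domains and 0.445 ± 0.0635 on narrower regions. A domain had a median of 2 MBD3 peaks in each animal, and 46.5%, 49.1% and 31.5% of domains had 3 or more in animals 5, 7 and 9.

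The window of 500 bp to either side of the strongest H3K27ac summit has the same length in every region. In the 1975 regions of under 0.5 kb and the 9104 of 0.5 to 1 kb, it always reaches outside the region. In wider regions it does so where the summit lies within 500 bp of an end. MBD3 peaks touched this window in 87.3% of domains in animal 5, 88.2% in animal 7 and 77.3% in animal 9, against 63.0%, 66.8% and 50.7% of narrower regions. The groups did not overlap, and the means were 84.3 ± 6.08% and 60.2 ± 8.45%, a difference of 24.1 ± 2.62 points (exact permutation p = 0.1, adjusted 0.4). The domains' summits were also the stronger ones. With the narrower regions weighted to the same 5 classes of H3K27ac fold enrichment, their share was 71.9% and the difference 12.4 points. With only narrower regions of 2000 bp or more, the difference was 8.56 points at the summit and 12.4 points for the share of regions. Over all alternatives run, the summit difference lay between 8.56 and 36.2 points.

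H3K4me1 was also found on more of the broad domains than of the narrower regions. Its peaks lay on 73.2% of domains in animal 5, 72.4% in animal 7 and 50.8% in animal 9, against 33.4%, 41.7% and 23.8% of narrower regions. Every value for domains was above every value for narrower regions, with means of 65.5 ± 12.7% and 33.0 ± 8.97% and a difference of 32.5 ± 6.59 points (exact permutation p = 0.1, adjusted 0.4). All 3 animals had H3K4me1 on 693 domains (47.7%), against 17.1% of all shared regions. No animal had it on 273 domains (18.8%), against 48.7% of narrower regions. The 273 domains' median width of 5910 bp was below that of the 693, 6627 bp.

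Unlike MBD3, H3K4me1 covered slightly more of the domains' bases than of the narrower regions' in each animal. The values were 17.5%, 23.2% and 11.5% in animals 5, 7 and 9, against 14.3%, 20.8% and 10.0%. The difference was 2.37 ± 0.836 points (17.4 ± 5.81% against 15.0 ± 5.44%, exact permutation p = 0.7, adjusted 0.84). Paired by animal, the exact sign-flip test gave p = 0.25, its smallest value, adjusted 0.3. The difference was 0.150 points when the lists of an antibody were shortened to equal length. At the strongest H3K27ac summit the window held H3K4me1 in 36.9 ± 8.67% of domains and 27.2 ± 7.55% of narrower regions. That difference was 9.73 ± 2.53 points (exact permutation p = 0.2, adjusted 0.6), and 3.89 to 15.7 points over the alternatives run. H3K4me1 peaks on domains were not among the strongest of their lists: their mean percentile of fold enrichment was 46.4, against 53.2 on narrower regions, and was lower on domains in all 3 animals. The difference was -6.83 ± 3.82, and -0.877 with lists of equal length.

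**Figure D2:**
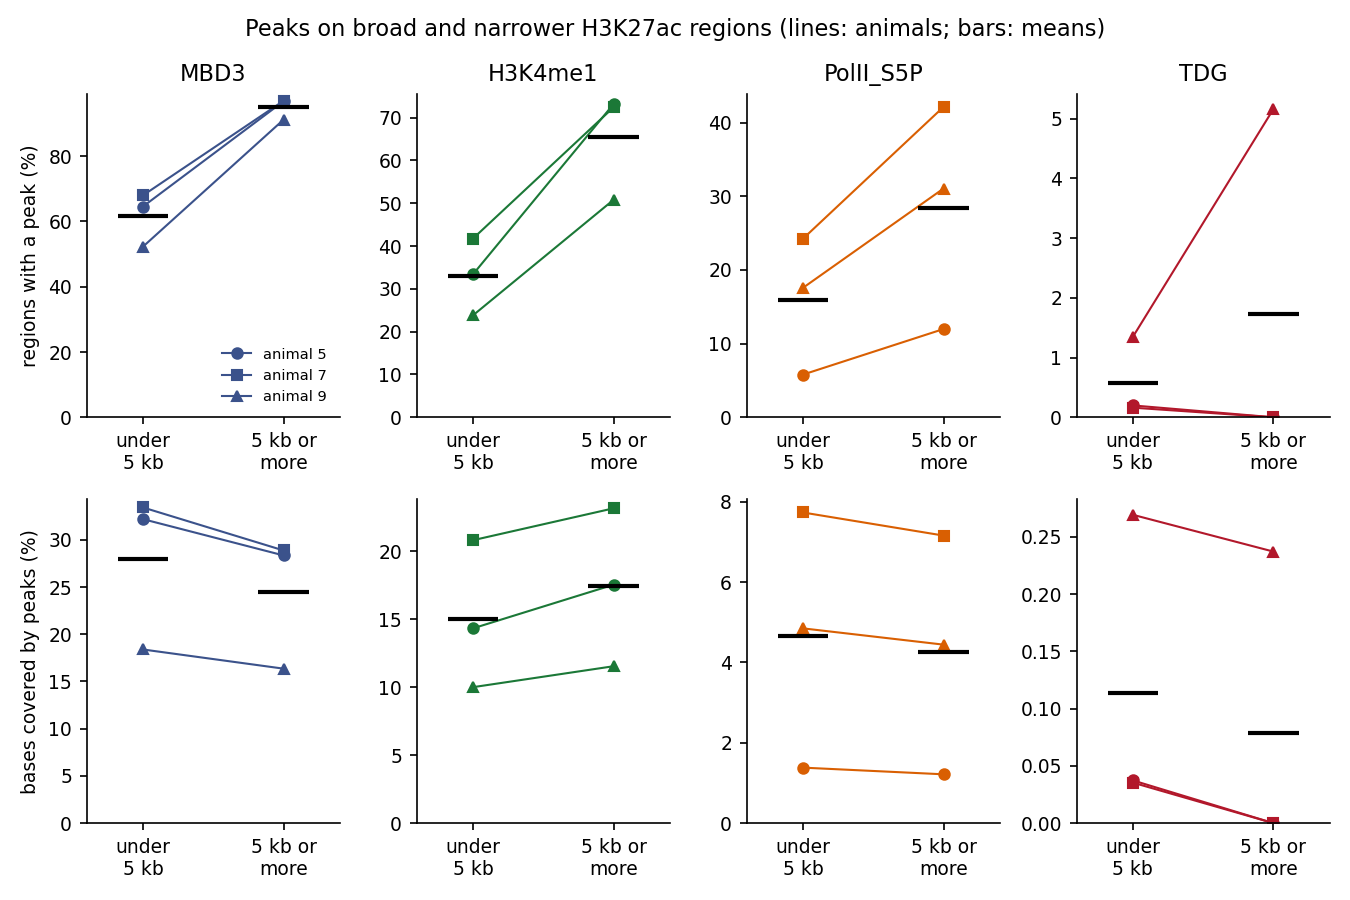
Peaks of each antibody on H3K27ac regions under 5 kb and of 5 kb or more (x axis), as the percentage of regions with a peak (upper row) and of bases covered (lower row; each panel has a y axis of its own), with 1 line per animal and bars at the means. The share of regions was higher on broad domains for MBD3 (61.6 to 94.999%) and H3K4me1 (33.0 to 65.5%) in every animal, while the bases covered by MBD3 went from 28.0 to 24.5%.

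PolII_S5P was absent from most broad domains. It was found on 11.98% of domains in animal 5, 42.1% in animal 7 and 31.0% in animal 9, against 5.79%, 24.2% and 17.6% of narrower regions. Domains were higher in each animal, but the ranges overlapped. The PolII_S5P lists also differed in length, with 4351, 19509 and 12526 autosomal peaks in animals 5, 7 and 9. The means were 28.4 ± 15.2% and 15.9 ± 9.33%, a difference of 12.5 ± 5.92 points (exact permutation p = 0.3, adjusted 0.72). Paired by animal, the exact sign-flip test gave p = 0.25, its smallest value, adjusted 0.3. The size of this difference depended on the setting. It was 3.41 points after weighting for H3K27ac strength, 3.52 points with stronger peaks (−log10 q of at least 5), 6.22 points with lists of equal length and 7.37 points against regions of 2000 bp or more. It was 19.5 points without animal 5, 19.8 points against all merged regions, 21.3 points for domains with a common stretch of 5000 bp and 25.8 points for domains of 10 kb or more. No animal had PolII_S5P on 778 domains (53.5%), against 72.5% of all shared regions. All 3 animals had it on 159 (10.9%), against 5.37%.

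By bases covered, PolII_S5P was close on both kinds of region. It covered 1.22%, 7.16% and 4.44% of the domains in animals 5, 7 and 9 and 1.38%, 7.73% and 4.85% of narrower regions. The difference of -0.382 ± 0.205 points (4.27 ± 2.97% against 4.65 ± 3.18%, exact permutation p = 0.7, adjusted 0.84) changed sign under several settings, with 0.491 points for domains of 10 kb or more and 0.0202 points without animal 7. At the strongest H3K27ac summit, PolII_S5P was in the window of 20.2 ± 11.9% of domains and 15.1 ± 8.93% of narrower regions (difference 5.11 ± 2.94 points, exact permutation p = 0.6, adjusted 0.84). This turned to -3.45 points when narrower regions were weighted to the domains' H3K27ac strength, and to -1.57 points with a −log10 q of at least 5. It was 10.3 points without animal 5 and 10.1 points for domains of 10 kb or more and for those with a common stretch of 5000 bp.

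Presence and density followed different courses over the whole range of widths. The share of regions with MBD3 was 31.8 ± 6.75% under 0.5 kb, 91.6 ± 4.26% at 4 to 5 kb, 93.6 ± 3.81% at 5 to 7.5 kb and 99.0 ± 1.35% at 10 kb or more. The bases covered by MBD3 were highest in the middle, 29.9 ± 8.76% at 2 to 3 kb, and were 19.8 ± 6.38% under 0.5 kb and 23.3 ± 6.78% at 10 kb or more. H3K4me1 lay on 15.7 ± 5.33% of the narrowest and 79.8 ± 14.8% of the widest regions, with 12.8 ± 4.71% and 17.9 ± 6.19% of bases covered. PolII_S5P lay on 6.57 ± 4.55% and 42.0 ± 19.6%, with 3.72 ± 2.55% and 5.06 ± 3.40% of bases covered. The window at the strongest H3K27ac summit, though of fixed length, also held MBD3 more often in wider regions. Its shares were 37.1% under 0.5 kb, 81.0% at 4 to 5 kb, 82.9% at 5 to 7.5 kb and 88.3% at 10 kb or more. In regions of under 1 kb the window always reached outside the region, and in wider ones it did so where the summit lay near an end. Across the limit, from 4 to 5 kb to 5 to 7.5 kb, H3K4me1 coverage was higher in each animal, 15.7 to 17.5%, 21.3 to 23.1% and 9.89 to 11.7% in animals 5, 7 and 9. MBD3 coverage was lower in each, 31.97 to 29.3%, 32.9 to 29.9% and 18.7 to 17.1%. These steps were not tested.

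**Figure D3:**
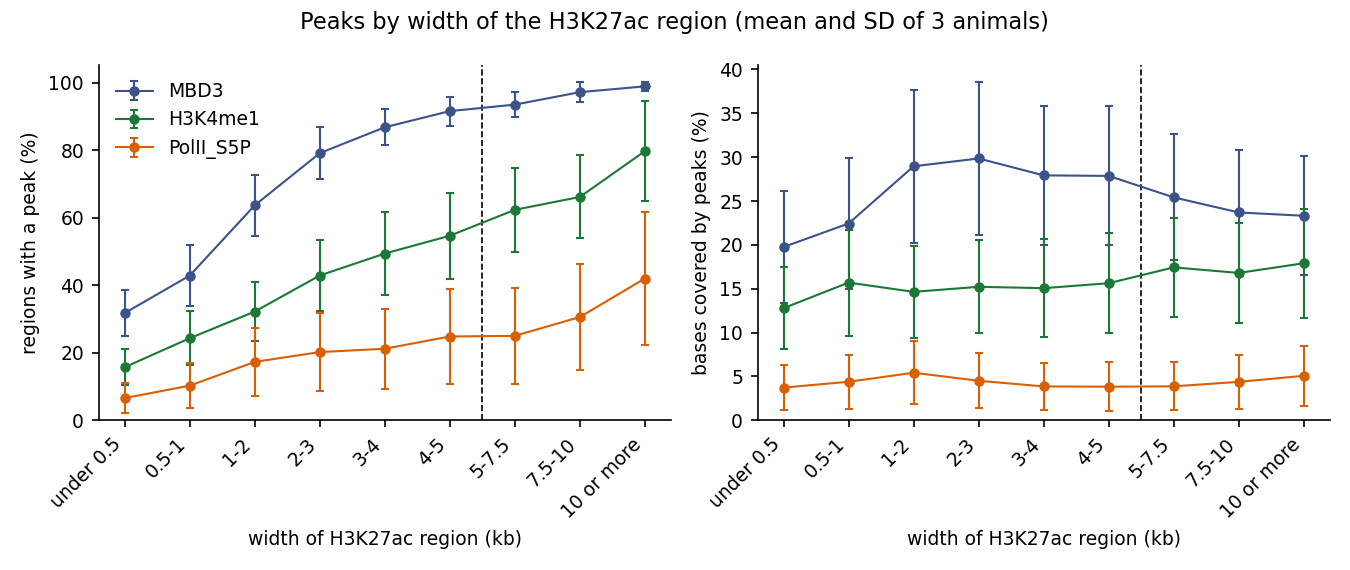
Percentage of H3K27ac regions with a peak and percentage of bases covered by peaks (y axes) by width class of the region in kb (x axis) for MBD3, H3K4me1 and PolII_S5P, as mean and SD of 3 animals, with a dashed line at 5 kb. The share with MBD3 climbed from 31.8% under 0.5 kb to 99.0% at 10 kb or more, while its covered bases stayed between 19.8 and 29.9%.

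The domains were sorted by which antibodies had peaks in at least 2 animals. The largest class, 697 domains (48.0%), had H3K4me1 and MBD3 without PolII_S5P, and held 17.7% of narrower regions. MBD3 alone was found on 307 domains (21.1%), against 31.0% of narrower regions, and PolII_S5P with MBD3 on 143 (9.84%), against 11.9%. All 3 antibodies came together on 256 domains (17.6%), where 3.12% of all shared regions and 2.51% of the narrower ones had all 3. These 256 were among the wider domains, with a median of 7507 bp. None of the 3 was found on 22 domains (1.51%), against 24.9% of narrower regions. H3K4me1 alone was found on 24 domains (1.65%), against 10.8% of narrower regions. The remaining domains had H3K4me1 with PolII_S5P (3, or 0.206%, against 0.762%) or PolII_S5P alone (1, or 0.0688%, against 0.489%).

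How H3K4me1 coverage related to PolII_S5P differed between broad domains and narrower regions, but not in every measure. For this, 403 domains with PolII_S5P in at least 2 animals (median width 6840 bp) were compared with the 778 in which no animal had it (6167 bp), and 5452 narrower regions with 25467. This split was added after the data had been seen. On domains with PolII_S5P, H3K4me1 covered 17.9%, 23.9% and 13.4% of bases in animals 5, 7 and 9, and on domains without it 17.0%, 22.2% and 10.1%. On narrower regions the values were 8.13%, 11.5% and 5.68% with PolII_S5P, and 15.9%, 23.1% and 10.9% without. By bases covered, H3K4me1 was thus lower with PolII_S5P on narrower regions in all 3 animals and slightly higher on domains. At the strongest H3K27ac summit it was lower with PolII_S5P on domains too: 28.3% against 45.9% of windows in animal 5, 30.5% against 50.4% in animal 7 and 24.8% against 26.9% in animal 9. On narrower regions these windows held it in 11.4% against 30.6%, 14.1% against 39.7% and 9.04% against 21.8%. The share of domains with H3K4me1 was lower with PolII_S5P in animals 5 and 7 (70.2% against 75.1% and 69.0% against 74.6%) and higher in animal 9 (52.4% against 49.4%). The difference between domains and narrower regions was tested for bases covered alone.

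For bases covered, the difference between regions with and without PolII_S5P was 1.92 ± 1.21 points on domains and -8.19 ± 3.26 points on narrower regions. These changes differed by 10.1 ± 2.80 points, in 3 of 3 animals (exact permutation p = 0.1, the smallest possible, adjusted 0.15 over 3 antibodies). The gap between the changes held its direction in each alternative run, from 4.88 to 11.7 points. The small change on the domains themselves did not: it was -0.0407 points for a limit of 4000 bp, -0.296 with stronger peaks and -0.898 without animal 9. By region, H3K4me1 in at least 2 animals was found on 64.3% of the 403 domains and 68.8% of the 778, against 20.9% and 33.7% of the narrower regions.

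MBD3 covered more of the bases where PolII_S5P was present. It covered 33.4%, 34.2% and 18.4% of domains with PolII_S5P in animals 5, 7 and 9, and 24.4%, 24.6% and 14.8% of those without. On narrower regions it covered 55.8%, 56.1% and 29.7% with PolII_S5P and 23.9%, 25.5% and 14.4% without. MBD3 was denser beside PolII_S5P on both kinds of region in every animal, by 7.40 ± 3.29 points on domains and 25.9 ± 9.20 points on narrower regions. The gap between these changes was -18.5 ± 5.96 points (exact permutation p = 0.1, adjusted 0.15). Without PolII_S5P, coverage by MBD3 was close on both kinds of region, 21.3 ± 5.60% and 21.3 ± 6.00%. The window at the strongest H3K27ac summit gave another pattern, listed for animals 5, 7 and 9 in turn. With PolII_S5P, it held MBD3 in 91.8%, 92.3% and 83.9% of domains and 91.5%, 92.5% and 78.1% of narrower regions. Without PolII_S5P, it held MBD3 in 84.7%, 85.7% and 72.9% of domains and 54.5%, 58.9% and 42.5% of narrower regions. The pattern in this window was not tested.

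**Figure D4:**
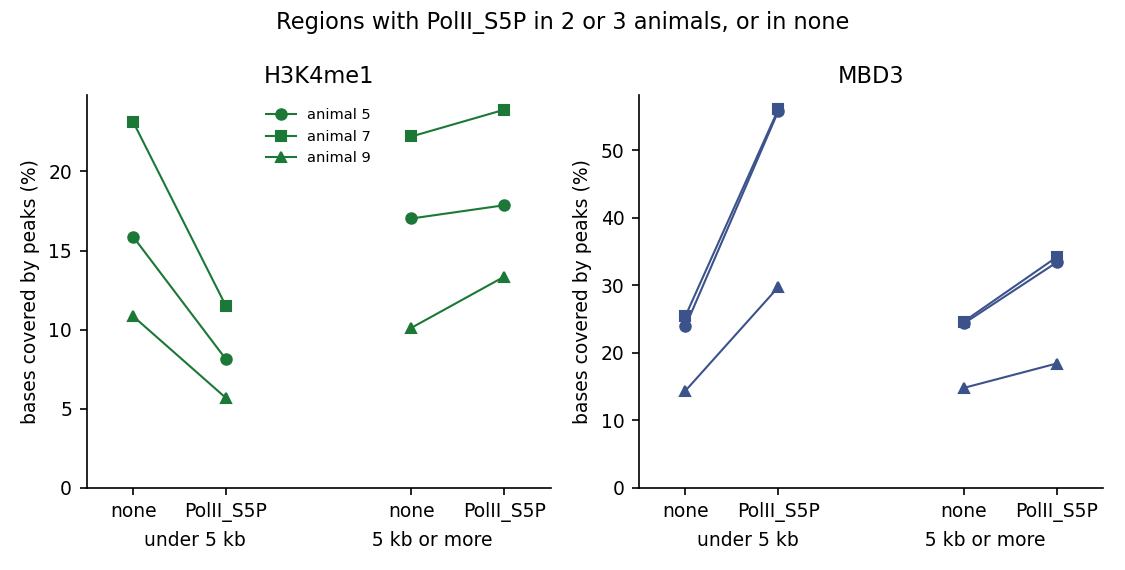
Bases covered by H3K4me1 (left) and MBD3 (right) peaks (y axes, %) on H3K27ac regions with PolII_S5P in no animal or in at least 2 animals (x axis), under 5 kb in the left pair and of 5 kb or more in the right pair of each panel, 1 line per animal. Mean H3K4me1 coverage was lower with PolII_S5P on narrower regions (16.6 to 8.44%) and slightly higher on broad domains (16.5 to 18.4%), a small change that turned sign under other settings, while MBD3 was higher on both.

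Coverage was also measured by distance from the strongest PolII_S5P summit of a region. Within 500 bp of it, H3K4me1 covered 18.1 ± 3.49% of the bases of domains and 8.19 ± 3.11% of those of narrower regions. From 1000 to 1500 bp away the values were 18.6 ± 4.76% and 13.3 ± 5.30%. Fewer narrower regions reach that far from the summit. In animal 7 the bases measured went from 7071 to 1968 kb on narrower regions, and from 595 to 511 kb on domains. On narrower regions, distance and region width therefore cannot be told apart. MBD3 was concentrated at the summit on both: 59.1 ± 13.9% of the first 500 bp on domains and 66.7 ± 17.9% on narrower regions, then 27.9 ± 10.3% and 24.5 ± 10.3% at 1000 to 1500 bp. On domains, then, H3K4me1 was level across the polymerase summit, while MBD3 declined with distance from it.

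The strongest polymerase summit and the strongest acetylation summit of a domain were often apart. Their median distance on domains was 683.5 bp in animal 5 (174 domains), 529 bp in animal 7 (607) and 568 bp in animal 9 (446). On narrower regions it was 171, 171 and 177 bp. The summits lay within 500 bp of each other in 40.2%, 48.9% and 45.7% of domains and in 87.7%, 85.8% and 85.7% of narrower regions. A region of under 5000 bp leaves less room for such a distance, so this comparison follows in part from the widths.

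Along the domains, MBD3, H3K4me1 and PolII_S5P peaks covered less of the ends than of the centre. In the outer 25% at each end, MBD3 covered 24.2%, 24.6% and 13.4% of bases in animals 5, 7 and 9, against 32.5%, 33.1% and 19.3% of the central 50%. The mean difference was -7.60 ± 1.43 points, with the outer part lower in 3 of 3 animals (exact permutation p = 0.3). H3K4me1 covered 15.4%, 20.7% and 10.5% of the outer part and 19.7%, 25.6% and 12.6% of the central part, a difference of -3.77 ± 1.48 points (exact permutation p = 0.5). For PolII_S5P it was -0.648 ± 0.435 points (3.95 against 4.60%, exact permutation p = 0.7). Outer and central values overlapped between animals for all 3 antibodies, although each animal had the lower value in the outer part. The exact permutation test leaves out this pairing. Paired by animal, the exact sign-flip test gave p = 0.25, its smallest value, for each of the 3 antibodies. H3K27ac itself covered 83.4 ± 8.71% of the outer and 93.3 ± 4.42% of the central part, which bears on the same bases.

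**Figure D5:**
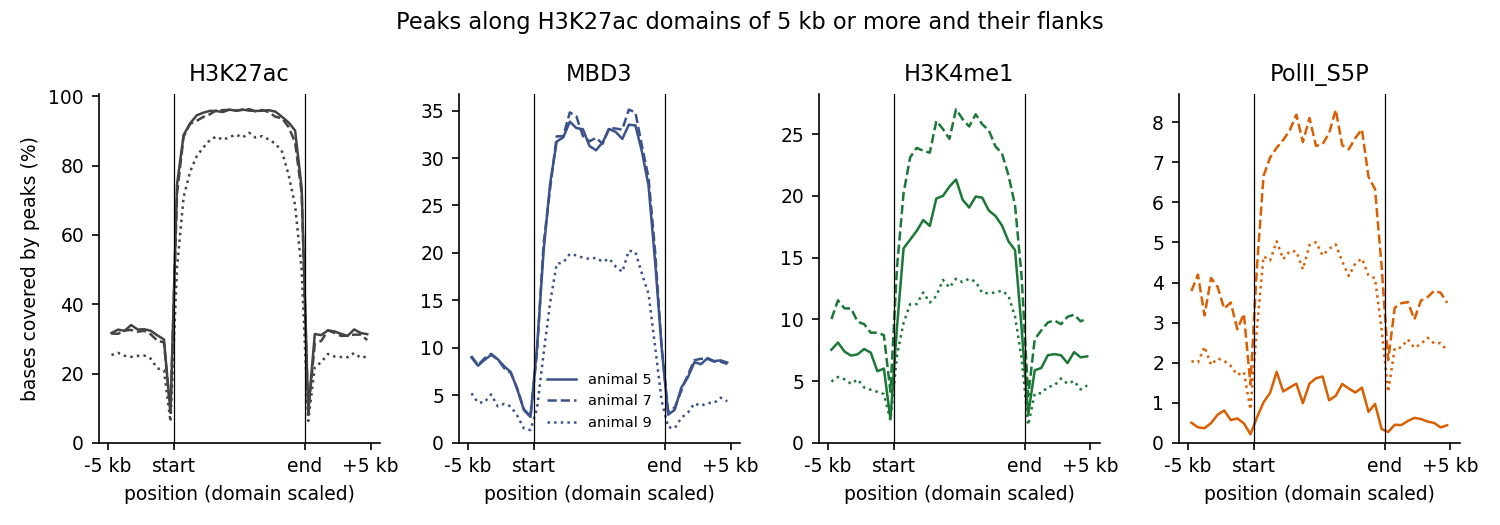
Percentage of bases covered by peaks (y axes, a scale of its own per antibody) along the 1453 broad domains, scaled to one length between start and end, and 5 kb to either side (x axis), 1 line per animal. Coverage is highest inside for the 4 antibodies shown, and for H3K27ac the low points beside both ends follow from the merging, since a peak that touched a domain was made part of it.

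The profile along the domains shows how far they stand above their surroundings. In the middle 10% of a domain's length, MBD3 covered 27.4 ± 7.07%, H3K4me1 20.1 ± 6.74% and PolII_S5P 4.63 ± 2.90% of the bases. At 4500 to 5000 bp outside, these values were 7.41 ± 2.27%, 7.37 ± 2.62% and 2.09 ± 1.59%. H3K27ac still covered 29.1 ± 3.45% of the bases there, so the surroundings were themselves rich in acetylated regions.

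Within the domains, the share of PolII_S5P summits inside MBD3 peaks was higher than the share of bases that MBD3 covered. The summits inside were 72.1%, 63.3% and 47.9% of those in animals 5, 7 and 9, on domains of which MBD3 covered 36.4%, 34.0% and 18.1% of bases. The difference was 31.6 ± 3.56 points and held in 3 of 3 animals (exact permutation p = 0.1, adjusted 0.4 over 4 such tests, added after the data had been seen). It was 31.8 ± 2.16 points on narrower regions. H3K4me1 summits were inside MBD3 peaks at 27.7 ± 8.91%, against 22.5 ± 6.29% of bases (difference 5.18 ± 2.76 points, exact permutation p = 0.5, and 2.82 points without animal 5). For PolII_S5P summits in H3K4me1 peaks the difference was 2.05 ± 3.96 points and positive in 2 of 3 animals (exact permutation p = 0.6). It was 3.90 points without animal 5, 0.743 without animal 7 and 0.793 without animal 9. H3K27ac summits were in MBD3 peaks at 40.9 ± 13.9%, against 24.5 ± 7.08% of bases. The difference was 16.3 ± 6.87 points and positive in 3 of 3 animals (exact permutation p = 0.3, adjusted 0.6). In animals 5, 7 and 9 the values were 48.8% against 28.3%, 49.0% against 28.9% and 24.8% against 16.4%.

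TDG was found on broad domains in animal 9 only. The autosomal lists held 125 peaks in animal 5, 240 in animal 7 and 934 in animal 9, of which 0, 0 and 80 lay on the domains. The 80 peaks were 8.57% of animal 9's list and lay on 75 domains on 18 chromosomes, with 2 peaks on 5 of them. That is 5.16% of domains, where 1.5% of all shared regions had TDG in animal 9. By bases covered, TDG was not higher on domains, with 0.237% against 0.269% of narrower regions in animal 9. In animals 5 and 7 it covered 0% of domains, against 0.0374% and 0.0354% of narrower regions. No domain had TDG in all 3 animals, against 0.105% of shared regions and 38 narrower regions (0.109%). None had it in 2 animals, against 32 narrower regions (0.0920%). Whether the domains differ from narrower regions in this was not tested. Per length, narrower regions held 0.00132 and 0.00100 TDG peaks per kb in animals 5 and 7, and domains 0. Over the animals the share was 1.72 ± 2.98% against 0.569 ± 0.674% (exact permutation p = 1). Without animal 9, the difference was -0.150 points with domains at 0.

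The domains with TDG in animal 9 were wide and strongly acetylated. Their median width was 7897 bp against 6394 bp for the other 1378, and the strongest H3K27ac peak in animal 9 had a median fold enrichment of 10.6 against 6.09. In the same animal, H3K4me1 lay on 90.7% of them against 48.6% of the others, PolII_S5P on 42.7% against 30.4% and MBD3 on 98.7% against 90.8%. Of the 80 TDG peaks themselves, 50 overlapped an H3K4me1 peak of animal 9 (62.5%, exact binomial 95% interval 51.0 to 73.1%). On narrower regions 32.4% of 479 TDG peaks did (28.2 to 36.8%). Overlap with MBD3 was 80.0% (69.6 to 88.1%) on domains and 79.5% on narrower regions, and with PolII_S5P 31.2% and 23.8%. These intervals cover counting error only, and peaks of 1 library are not replicates. The TDG peaks on domains were of modest strength, with a median fold enrichment of 4.15 against 4.47 on narrower regions.

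The widest domains differed widely in what lay on them. The widest of all, chr9:56539581-56575860 (36280 bp), was 1 H3K27ac peak in animal 5, 7 peaks in animal 7 and 12 in animal 9, and the longest stretch common to all was 5255 bp. MBD3 covered 26.6%, 22.5% and 13.1% of it, and H3K4me1 0.783%, 2.92% and none. The domain was therefore almost free of H3K4me1 while MBD3 was somewhat below its mean over all domains. Its neighbour within 10 kb, chr9:56585444-56607541, was also among the 10 widest and had MBD3 on 21.6%, 15.3% and 12.5% of its bases and no PolII_S5P in any animal.

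The next widest, chr6:86027226-86062355 (35130 bp), was rich in H3K4me1, with 11, 14 and 8 peaks on 37.9%, 39.6% and 27.2% of its bases in animals 5, 7 and 9. It lay in a run of 5 domains and held a TDG peak in animal 9. The fifth widest, chr10:84216214-84242026 (25813 bp), had H3K4me1 on 41.5%, 54.0% and 17.7% of its bases. These domains stood well above the mean coverage of 17.4% for H3K4me1.

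The domain chr3:88106943-88139523 (32581 bp) had the most MBD3 peaks, with 16, 14 and 9 on 35.0%, 29.9% and 10.8% of its bases. It also had 1, 11 and 7 PolII_S5P peaks. PolII_S5P was most extended among the 10 widest on chr18:61050479-61072459 (21981 bp), where it covered 8.92%, 49.2% and 38.0% of bases. It was absent in every animal from chr14:64607472-64633203 and chr2:166974619-167000023, which were 25732 and 25405 bp wide. The other 2 of the 10 widest, chr8:85490263-85517804 and chr18:60738970-60763362, had MBD3 on 35.4%, 28.3% and 14.3%, and on 32.8%, 35.2% and 21.7% of their bases.

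The domains with the strongest MBD3 peaks were taken by the best mean rank of fold enrichment over the 3 animals. The first, chr9:36848677-36865486, reached 45.8-fold, 42.5-fold and 32.7-fold in animals 5, 7 and 9 and had no PolII_S5P peak. Next came chr16:20639634-20645615 (32.3, 46.6 and 39.9-fold) and chr16:96430922-96439537 (30.5, 37.3 and 46.9-fold). Then followed chr9:20588232-20599277 and chr17:51065905-51071088. Of these 5, 3 had no PolII_S5P peak in any animal, beside 53.5% of all domains, and 2 had one in a single animal. All 5 had H3K4me1 in at least 2 animals, where 19.8% of all domains had it in 2 and 47.7% in 3. The last 2 had TDG in animal 9, beside 5.16% of all domains. These 5 domains were picked by rank, and a link between the antibodies was not tested on them.

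The strongest PolII_S5P peak on a domain was at chr19:5848567-5870074, with a fold enrichment of 27.9, 45.6 and 43.9 in animals 5, 7 and 9. All PolII_S5P peaks there, 4, 3 and 4 in number, together covered 15.3%, 21.3% and 22.1% of that domain of 21508 bp. The domain beside it, chr19:5842647-5848333, had PolII_S5P over 88.1%, 88.8% and 90.8% of its bases in the form of 1 peak per animal. These domains were separated by a short break in the acetylated peaks. At chr12:100165251-100170969 PolII_S5P covered 55.5%, 79.3% and 75.3%, and at chr6:125140816-125145824, which had no H3K4me1 in any animal, 14.0%, 37.5% and 15.5%. The last of the 5, chr5:125465702-125472701, reached 8.90-fold, 16.3-fold and 13.8-fold.

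The domains with the strongest H3K4me1 peaks differed in how much of them H3K4me1 covered. At chr7:73178866-73185046 H3K4me1 covered 79.9%, 94.4% and 99.2% of the 6181 bp in animals 5, 7 and 9, as 2, 1 and 1 peaks with folds of 6.35, 5.52 and 5.49. MBD3 covered only 4.03% and 14.9% of it in animals 5 and 7 and none in animal 9. At chr6:92369643-92380440 H3K4me1 covered 53.0%, 78.0% and 66.8% with 7, 5 and 4 peaks. At chr1:194698789-194706991 it covered 51.2%, 48.8% and 37.5%, beside PolII_S5P on 34.1%, 64.7% and 71.0% of the same domain. The other 2, chr2:44989827-45004042 and chr2:90696035-90711139, had H3K4me1 on 23.3 to 32.1% and 37.6 to 47.8% of their bases over the animals. The rule for these 5 domains asked for an H3K4me1 peak in all 3 animals. On the last 4 of them PolII_S5P also had a peak in every animal, beside 10.9% of all domains. This means the same domain and not the same bases: on chr2:90696035-90711139 PolII_S5P covered 1.83%, 6.42% and 4.58%.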

How the data were processed

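The files are peak lists in narrowPeak layout, 1 per library for 15 libraries (5 antibodies in 3 animals), and inputs (3 samples) were not used here. The submitters' processing notes list MACS2 2.2.7.1, Picard 2.18.29, SAMtools 1.16.1, Trim Galore 0.6.7, bcl2fastq 2.20 and the builds mm39 and hg38, with mouse peaks on the former. For aligner and control, the sources used here give no name. The authors deposited for each peak a score, a fold enrichment (a ratio to local background), −log10 p and −log10 q, and a summit offset, a number of another kind counted in bp from the peak start. Lists reached down to a −log10 q of 1.30 to 1.44. Read depth is unknown, so list length and depth cannot be told apart. The MBD3 and TDG lists spell unplaced sequences differently from the others, a difference in processing that cannot be told apart from the antibody.

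From these lists, peaks were merged and overlaps of at least 1 bp were counted. The values compared were the share of regions with a peak, the bases covered and the window around the strongest H3K27ac summit, all within the same animal. Antibodies and regions were compared over animals by two-sided exact permutation tests (3 values against 3). Per the labels, libraries of one number come from one animal and are thereby paired, which was tested by flipping signs. Named domains are the 10 widest, the 5 with the best mean rank of fold enrichment for MBD3, PolII_S5P and H3K4me1, and the 3 nearest to the limit on either side. Members, lists and rules were chosen with earlier results of these data known. Gene names, gene and marker lists, promoters and sequences were not used here, because the reference tables are on GRCm38.p6, so the labelled tissue was not checked against markers. Alternatives covered width, merging, q-value, comparison set, H3K27ac strength, list length and each animal left out, with domains chosen again from the remaining animals. The code was tested on simulated data. Tools were scipy 1.17.1, pandas 2.3.3, numpy 2.4.6 and matplotlib 3.10.9 under Python 3.11.15.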

Additional observations from a re-analysis of the deposited data

Results flagged for a closer look

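The relation of H3K4me1 coverage to PolII_S5P differed between broad domains and narrower regions. From regions without to regions with PolII_S5P, coverage was higher in each of the 3 animals on domains and lower in each on narrower regions, and these changes differed by 10.1 percentage points (exact permutation p = 0.1, adjusted 0.15). The higher coverage on domains was small and did not hold its direction: it was -0.0407 points at 4000 bp, -0.296 with stronger peaks and -0.898 without animal 9. At the strongest H3K27ac summit, H3K4me1 was lower with PolII_S5P on domains as well, in 3 of 3 animals (28.3% against 45.9%, 30.5% against 50.4% and 24.8% against 26.9%). The gap between the changes in coverage was 8.82 points against narrower regions of 2000 bp or more and 7.83 points with PolII_S5P taken from the same animal. Domains with PolII_S5P were wider than those without (medians of 6840 and 6167 bp), as were narrower regions (1639 and 1268 bp), and the part of H3K27ac strength was not tested.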

How the results depend on the processing

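Over 23 results and 310 alternatives that recomputed a value, 277 kept the direction (for the number of domains, the size), 27 reversed and 6 moved. No p could pass 0.05 under any of them, so the tests say nothing about stability. The number of domains was 2608 at 4000 bp, 475 at 7500 bp, 196 at 10000 bp, 2579 with peaks merged within 500 bp and 343 for a common stretch of 5000 bp. The PolII_S5P difference in covered bases was 0.160 (7500 bp), 0.491 (10000 bp), 0.693 (common stretch), 0.433 (all merged regions), 0.0860 (narrower of 2000 bp or more) and between -0.167 and 0.0202 with an animal left out. At the summit it was -1.57 (−log10 q of at least 5), -3.45 (weighted by H3K27ac strength) and 10.3 (without animal 5). MBD3 coverage differed by 1.60 against all merged regions. TDG differences were -0.159 (share, equal lists), 0.00142 and 0.0139 (covered bases at 10000 bp and common stretch), and -0.161, -0.175 and -0.0791 (summit, with stronger q, equal lists and strength). With an animal left out they ranged from -0.150 to 2.29 (share) and -0.162 to 0.854 (summit). The fold percentile difference was -0.877 for H3K4me1 with equal lists, and 6.72 (stronger q) and 1.22 (merged within 500 bp) for PolII_S5P, -3.54 to 1.54 with an animal left out. For MBD3 it was 0.115 (10000 bp), 0.565 (stronger q), 0.187 (common stretch), 0.246 (all merged) and 2.199 (equal lists), and -3.46 to 0.614 with an animal left out. The cause was not tested. The pairing by animal as a replicate block leaves values as they are and allows no p below 0.25. With 3 animals, unknown depth and TDG lists of 125 to 934 peaks, absence of a peak does not show absence of a protein.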
